A study of Mus musculus with 6 samples.

Results

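The 7 genes of the NMDA receptor, Grin1, Grin2a, Grin2b, Grin2c, Grin2d, Grin3a and Grin3b, were described in messenger RNA of the mouse nucleus accumbens core. They were taken by symbol from a table of 24532 genes, in which they fill 10 of 36780 transcript rows. The series holds 3 ethanol and 3 control samples of WT male mice, called adolescent in the labels, with postnatal days 35 to 55 as the age, for an unnamed step. All mice of both groups, per the series design, went through contextual fear conditioning, extinction trials and 27 days of drinking on alternate days, and tissue was taken 24 h later. The ethanol schedule between conditioning and extinction was 6 intraperitoneal injections of 20% v/v ethanol in saline over 6 h, at 1.8 g/kg first and 1.2 g/kg in the 5 later ones. The labels print this schedule, and a treatment field reading ethanol exposure, for control samples too, so the groups rest on the sample titles, and what control mice received was not stated. No source says that the samples came from separate animals. Each p-value is therefore set against the variation among these 6 samples, part or all of which may be technical.

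NMDA receptors are ion channels, and the common forms, built of GluN1 and GluN2, pass calcium once glutamate and a co-agonist, glycine or D-serine, are both bound and depolarisation has removed a magnesium block. Every receptor holds GluN1 subunits, encoded by Grin1, together with GluN2 subunits, which bind glutamate and set the kinetics, or GluN3 subunits, which bind glycine and lower calcium entry. Channels of GluN1 and GluN3 alone open on glycine and are little blocked by magnesium. In the striatum these channels receive the glutamate of cortical, thalamic and limbic axons on medium spiny neurons, take part in synaptic plasticity, and are among the receptors that ethanol inhibits.

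The libraries held 36197592 to 67399599 estimated reads in the ethanol group and 35898026 to 55672232 in the control group. All 8 markers of medium spiny neurons had reads in every library, and Ppp1r1b, which encodes DARPP-32 of these neurons, stood at 202.5 to 456.9 FPKM in ethanol and 217.3 to 259.1 FPKM in control. FPKM are reads scaled for transcript length and library size, as the authors gave them, and are used here to compare levels between genes. CPM are reads per 1e6 reads after scaling for library make-up (TMM), and are used to compare groups. Ethanol 2 stood apart from ethanol 1 and ethanol 3 in genes with long transcripts. Over 383 genes with a transcript of 10 kb or longer, none of them a subunit gene, the median of log2 CPM less the gene's own mean was 0.19, -0.61 and 0.37 in the ethanol libraries and 0.07, 0.03 and -0.04 in the control libraries.

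Grin1 was by far the most abundant of the 7 genes. It stood at 117.7, 98.7 and 103.5 FPKM in the ethanol libraries and at 104.5, 93.9 and 101.4 FPKM in the control libraries, and its level differed only 1.25-fold between the highest and the lowest library. The gene lies on chromosome 2 from 25291177 to 25319187 of mm10. Its fitted change in CPM was a log2 fold change of 0.20 (SE 0.16), with an adjusted p of 0.645 in edgeR's quasi-likelihood test. In CPM the 3 ethanol libraries (498.2 to 623.0) lay above the 3 control libraries (439.8 to 495.2), as did those of 9.35% of all genes tested, while in FPKM the groups overlapped.

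The table splits Grin1 into 3 transcripts, which differ by the cassette exons named N1 and C1. N1 lies in the extracellular part, where its presence is known to weaken inhibition by protons. C1 lies in the cytoplasmic tail and carries sites for protein kinases. These cassettes and a stretch that separates the Grin3a transcripts are printed from GENCODE M21 (GRCm38, minus strand), because the transcript rows differ by them, with the cassette in capitals between 15 bases of its neighbours. N1 is exon 4 of 20 at chr2:25311343-25311405, and C1 is exon 19 of 20 at chr2:25294438-25294548. The Grin3a insert opens the last of 9 exons at chr4:49665566-49665625, and all 3 stretches are coding.
Grin1 N1 cassette: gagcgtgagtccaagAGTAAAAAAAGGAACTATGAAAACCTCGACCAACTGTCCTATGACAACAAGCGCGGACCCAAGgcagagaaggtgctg
Grin1 C1 cassette: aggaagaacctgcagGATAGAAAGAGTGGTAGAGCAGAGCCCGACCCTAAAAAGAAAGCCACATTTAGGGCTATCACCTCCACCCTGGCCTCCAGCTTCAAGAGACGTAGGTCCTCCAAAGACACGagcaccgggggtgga
Grin3a insert: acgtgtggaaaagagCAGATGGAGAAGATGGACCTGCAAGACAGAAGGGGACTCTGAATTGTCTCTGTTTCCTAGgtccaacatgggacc

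N1 has 63 bases, the difference between Grin1 variant 2 (906 amino acids) and variant 3 (885 amino acids). Variant 1, with 938 amino acids, holds the 111 bases of C1 and another end of the coding sequence, and lacks N1. Other combinations of the cassettes have no row in the table used here, so reads from them could only be assigned to these 3 transcripts or to none. The counts are estimates split among overlapping transcripts, and their error is not given.

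Variant 3, with neither cassette, held 51.9%, 38.6% and 48.0% of the summed Grin1 FPKM in the ethanol libraries and 36.8%, 47.0% and 44.6% in the control libraries. Variant 1, with C1, held 35.1%, 36.5% and 32.5% in ethanol and 42.1%, 42.1% and 30.9% in control. Variant 2, with N1, held 13%, 24.9% and 19.5% in ethanol and 21.1%, 10.8% and 24.5% in control. Within each group the N1 share of single libraries lay further apart than the group means of 19.1% and 18.8%. The exact permutation test (two-sided, 3 against 3, smallest possible p 0.10) gave p = 0.5 for variant 3, p = 0.4 for variant 1 and p = 0.9 for variant 2. Adjusted over the 4 distinct shares of Grin1 and Grin3a transcripts, each of these exact permutation p-values was 1.0. This test was chosen after the data had been seen. Grin1os, a gene named for the strand opposite Grin1 and looked up after its values had been seen, had 35, 11 and 38 reads in ethanol and 124, 46 and 38 in control, at most 0.434% of the Grin1 reads of a library. Whether counting used strand is not given in the sources used here.

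**Figure D1:**
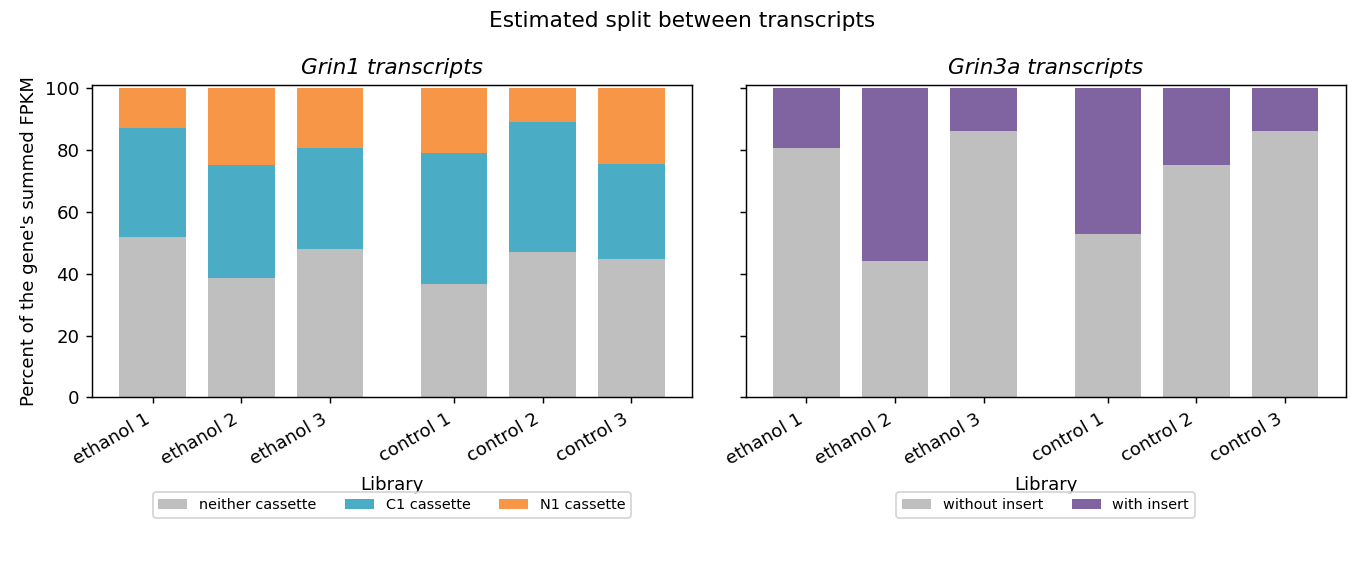
Stacked bars give the share (percent, y axis) of each transcript in the summed FPKM of Grin1 (left) and Grin3a (right) in each of the 6 libraries (x axis). The N1 share ranges from 13% to 24.9% in ethanol and from 10.8% to 24.5% in control, and the Grin3a insert from 14.0% to 55.9% in ethanol and from 14.0% to 47.1% in control.

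Among the GluN2 genes, Grin2c and Grin2d stood highest per length. Grin2c, whose subunit is known from cerebellar granule cells and astrocytes, stood at 8.43, 7.01 and 8.37 FPKM in ethanol and at 11.4, 8.65 and 14.2 FPKM in control. Grin2d, known from interneurons and from the developing brain, stood at 7.80, 2.34 and 6.79 FPKM in ethanol and at 6.18, 4.92 and 4.51 FPKM in control. In FPKM every ethanol library of Grin2c lay below every control library, with 8.43 against 8.65 FPKM at the closest, though in CPM the groups overlapped. FPKM put the median gene at a log2 ratio of group means of -0.09, on the side of lower values in ethanol. The share of all genes with such a separation in FPKM was not computed. No subunit gene was lower in all 3 ethanol libraries in CPM, against 8.41% of all genes. In Grin2d the control libraries lay between ethanol 2 and the other ethanol libraries.

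Grin2b and Grin2a, which encode the GluN2B and GluN2A subunits known as the main ones of forebrain projection neurons, stood far lower in this table. Grin2b had 1.65, 0.569 and 1.59 FPKM in ethanol and 0.490, 0.799 and 0.846 FPKM in control. Grin2a had 0.807, 0.116 and 0.790 FPKM in ethanol and 0.245, 0.191 and 0.190 FPKM in control. In both genes ethanol 1 and ethanol 3 lay above all 3 control libraries, and ethanol 2 did not: it was the lowest library for Grin2a and lay within the control range for Grin2b. The reads behind Grin2a were 302, 28 and 160 in ethanol and 75, 39 and 38 in control, so its values rest on far fewer reads than those of Grin1, which had 16925 to 39113.

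These low levels belong to transcript models that are shorter than the annotated genes. The table has 1 row of 4512 bases for Grin2a, 30.8% of the longest GENCODE M21 transcript of 14634 bases, and 1 row of 7505 bases for Grin2b, 31.2% of 24060 bases. Models of the other 5 genes had 80.7% to 102.9% of that length. Of 15306 tested genes with a GENCODE match, 2.76% had a model under 35% of it, and their median level was 9.02 FPKM, against 5.75 FPKM in genes with 50% or more. The part of the short models in the low values of Grin2a and Grin2b was not tested. Grin2a lies on chromosome 16 from 9577710 to 9992533 and Grin2b on chromosome 6 from 135729805 to 136173511.

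Grin3a, whose GluN3A subunit gives receptors with little calcium entry, stood at 8.58, 3.85 and 7.44 FPKM in ethanol and at 5.02, 5.73 and 4.47 FPKM in control. Ethanol 1 and ethanol 3 were again the highest libraries and ethanol 2 the lowest. The transcript with the 60-base insert (variant 1) held 19.3%, 55.9% and 14.0% of Grin3a FPKM in ethanol and 47.1%, 24.9% and 14.0% in control. Over the 6 libraries that is a spread of 3.99-fold, the groups overlapped, and the exact permutation test gave p = 1.0. Grin3b, known mainly from motor neurons, stood at 0.255, 0.197 and 0.200 FPKM in ethanol and at 0.203, 0.519 and 0.346 FPKM in control. It had 30 to 76 reads per library, and the groups overlapped in FPKM.

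**Figure D2:**
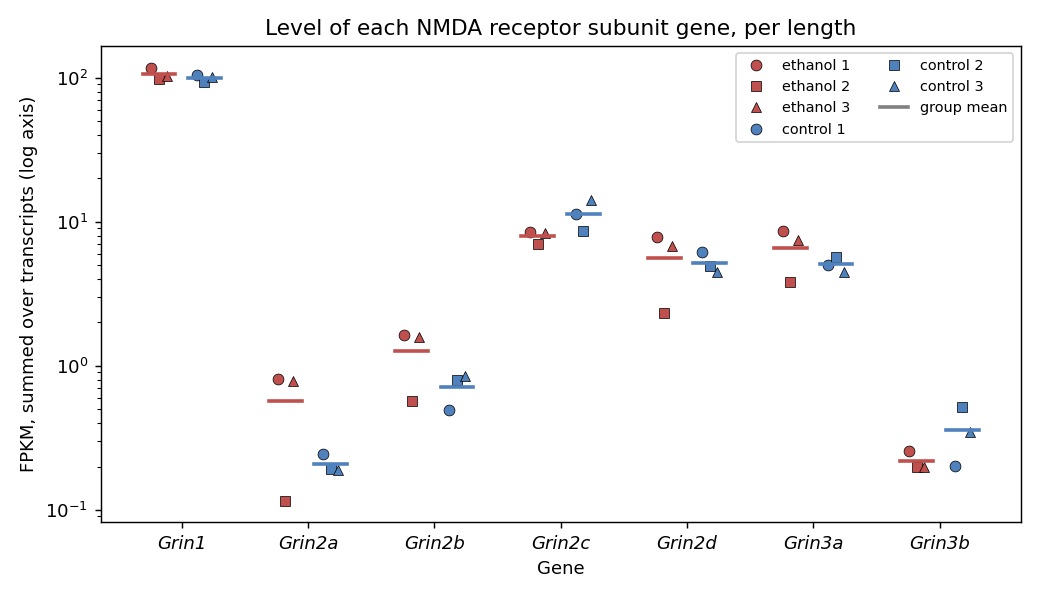
Points give the FPKM of each subunit gene (y axis, log scale, summed over transcripts) in each library, with ethanol libraries in red, control libraries in blue, and bars at the group means. Grin1 sits near 100 FPKM in all 6 libraries (93.9 to 117.7), and Grin2a spans 0.116 to 0.807 FPKM within the ethanol group alone.

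By mean FPKM over the 6 libraries the order was Grin1 (103.3), Grin2c (9.68), Grin3a (5.85), Grin2d (5.42), Grin2b (0.990), Grin2a (0.390) and Grin3b (0.287). The ranges of Grin1 and Grin2c did not overlap, nor did those of Grin2d and Grin2b. Grin2c exceeded Grin3a in 5 of 6 libraries, Grin3a exceeded Grin2d in 4 of 6, and Grin2a exceeded Grin3b in 3 of 6, so these neighbours were not apart beyond their spread. Grin2b exceeded Grin2a in 6 of 6 libraries, though their ranges overlapped.

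The shares of the GluN2 genes rest on models with 30.8% (Grin2a) and 31.2% (Grin2b) of the longest GENCODE transcript. Grin2c has 100.0% and Grin2d 80.7%. The part of this in the shares was not tested. Within the summed level of the 4 GluN2 genes, Grin2c held 45.1%, 69.9% and 47.7% in ethanol and 62.2%, 59.4% and 71.9% in control. Grin2d held 41.7%, 23.3% and 38.7% in ethanol and 33.7%, 33.8% and 22.9% in control. Grin2b held 8.81%, 5.67% and 9.08% in ethanol and 2.68%, 5.48% and 4.28% in control. Each ethanol library lay above each control library, but the closest values were 5.67% in ethanol and 5.48% in control. This separation was not tested. Grin2a held 4.32%, 1.15% and 4.50% in ethanol and 1.34%, 1.31% and 0.962% in control.

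Ratios between genes of the same library do not depend on how libraries are scaled. Their size does rest on the transcript models, which are short for Grin2a and Grin2b, and the part of this was not tested. Grin2d over Grin2b was 4.74, 4.11 and 4.26 in ethanol and 12.6, 6.16 and 5.34 in control, a log2 difference of -0.77 for ethanol minus control. The groups did not overlap, which gives the smallest p that 3 against 3 allow in the exact permutation test (two-sided p = 0.1, adjusted over 5 ratios p = 0.5). Grin2c over Grin2b was 5.12, 12.3 and 5.25 in ethanol and 23.2, 10.8 and 16.8 in control, a log2 difference of -1.22 (exact permutation p = 0.2, adjusted 0.5). Ethanol 2 lay inside the control range for that ratio.

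The GluN2 genes together reached 0.159, 0.102 and 0.169 of the Grin1 level in ethanol and 0.175, 0.155 and 0.195 in control, a log2 difference of -0.32 (exact permutation p = 0.3, adjusted 0.5). Grin2a over Grin2b was 0.490, 0.203 and 0.496 in ethanol and 0.499, 0.239 and 0.225 in control (log2 difference 0.29, exact permutation p = 1.0). Grin3a over Grin1 was 0.0729, 0.039 and 0.0719 in ethanol and 0.048, 0.0611 and 0.0441 in control (log2 difference 0.22, exact permutation p = 0.6, adjusted 0.75). Single libraries moved these differences. Grin2d over Grin2b was -0.39 without control 1. Grin2a over Grin2b ran from 0.08 without ethanol 3 to 0.72 without ethanol 2, Grin3a over Grin1 from 0.07 without ethanol 1 to 0.52 without ethanol 2, and the GluN2 genes over Grin1 from -0.46 without ethanol 3 to -0.09 without ethanol 2. No ratio passed at a threshold of 0.05, which this design cannot reach.

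**Figure D3:**
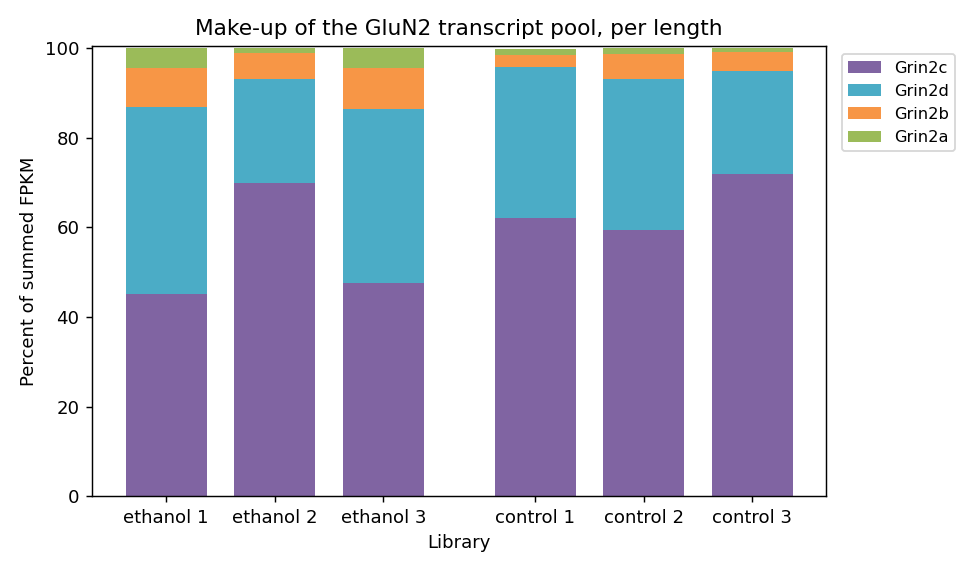
Stacked bars give the share (percent of summed FPKM, y axis) of Grin2c, Grin2d, Grin2b and Grin2a in the GluN2 pool of each library (x axis). Ethanol 1 and ethanol 3 are alike, with 45.1% and 47.7% Grin2c, while ethanol 2, with 69.9%, lies within the control range of 59.4% to 71.9%. The transcript models of Grin2a and Grin2b are short.

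The comparison of ethanol with control asked whether any subunit transcript differed after the drinking period. None of the 7 genes passed the test over all genes (edgeR, Benjamini-Hochberg adjusted p under 0.05), where 0.0% of 15774 genes passed as higher and 0.0% as lower. DESeq2 called 0 of the 7 genes and 0.913% of all genes, and limma-voom called 0 of 7 and 0.0% of all. At an unadjusted p under 0.05, edgeR had 2 of the 7 genes, Grin2a and Grin2b, both higher in ethanol, against 10.7% of all genes in either direction and 5.31% as higher. Of the 7 genes, 5 had a log2 fold change above 0, as did 52.7% of all genes, and the median was 0.23 for the 7 genes and 0.02 for all. The median of the 7 genes was 0.09 without ethanol 1, 0.37 without control 1, 0.59 without ethanol 2 and 0.15 with total counts only. In that last setting the median of all genes was -0.06.

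Grin2a averaged 3.26 ± 2.25 CPM in ethanol and 1.12 ± 0.16 CPM in control (SD, n = 3 each). Its log2 fold change was 1.54 (SE 0.60, edgeR adjusted p = 0.448). Grin2b averaged 12 ± 5.80 CPM in ethanol and 6.27 ± 1.71 CPM in control, a log2 fold change of 0.95 (SE 0.39, edgeR adjusted p = 0.45). Without ethanol 2 both genes passed, Grin2a with a log2 fold change of 2.01 (edgeR adjusted p = 0.0224) and Grin2b with 1.28 (edgeR adjusted p = 0.0463). That fit called 1.26% of all genes higher and 0.0628% lower. In the transcript test without ethanol 2, the only transcript of each gene did not pass (edgeR adjusted p = 0.312 for Grin2a and 0.326 for Grin2b). That test called 0 of 23285 transcripts. Ethanol 2 was left out here as 1 of 6 libraries left out in turn, and in none of the other 5 such fits did a subunit gene pass.

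Grin3a averaged 64.2 ± 24.9 CPM in ethanol and 45.5 ± 5.21 CPM in control (SD, n = 3 each). Its log2 fold change was 0.50 (SE 0.27, edgeR adjusted p = 0.528). It was 0.76 without ethanol 2 and 0.22 without ethanol 1. Grin2c averaged 49.0 ± 5.48 CPM in ethanol and 65.5 ± 16.5 CPM in control, a log2 fold change of -0.42 (SE 0.21, edgeR adjusted p = 0.496) that stayed below 0 without any 1 library. Grin2d had a log2 fold change of 0.23 (SE 0.37) that was -0.13 without ethanol 1 and 0.59 without ethanol 2. Grin3b had -0.56 (SE 0.46), and -0.19 without control 2. Of the 10 transcripts, edgeR called 0, with 0.0% of 22527 transcripts called, and at an unadjusted p under 0.05 it had 0 of the 10, against 6.55% of all.

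**Figure D4:**
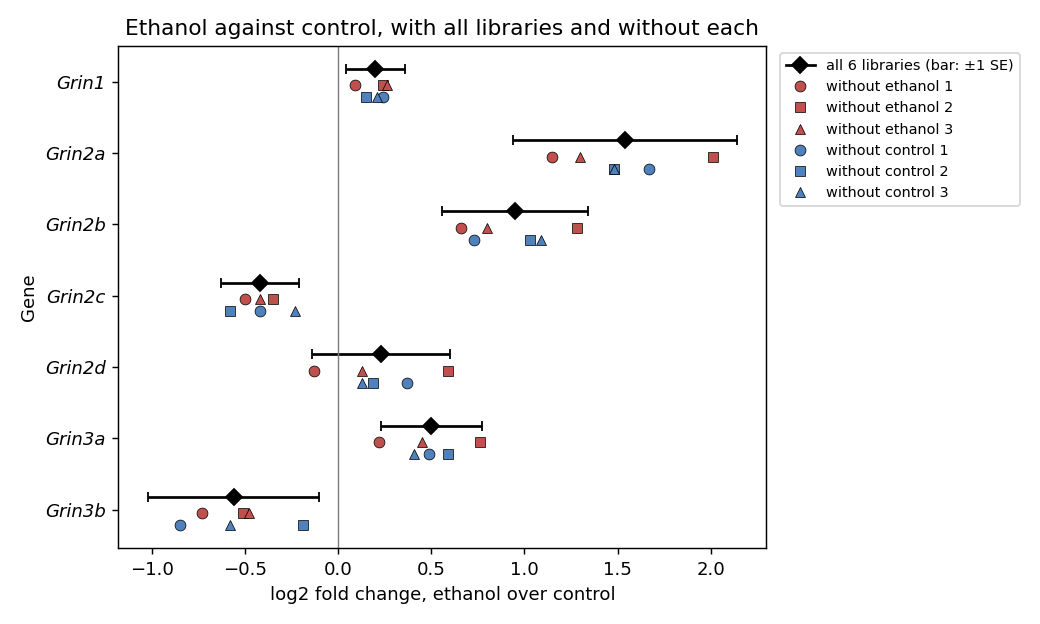
Black diamonds give the edgeR log2 fold change (x axis, ethanol over control) of each subunit gene (y axis) with bars of 1 SE, and coloured points the same value without each library. Leaving out ethanol 2 moves Grin2a to 2.01 and Grin2b to 1.28, and leaving out ethanol 1 moves Grin2d to -0.13.

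Among the 7 genes, Grin2a, Grin2b, Grin2d and Grin3a had their 2 highest CPM in ethanol 1 and ethanol 3. Less its mean over the libraries, Grin2a stood at 1.52, -1.22 and 1.36 on the log2 scale in ethanol and at -0.33, -0.68 and -0.64 in control. The genes with a transcript of 10 kb or longer ordered the ethanol libraries in part alike, low in ethanol 2 and high in the other 2, but over a smaller range. With trends over GC content and transcript length removed, the log2 fold change was 1.58 for Grin2a and 1.09 for Grin2b, and 0 of the 7 genes passed in edgeR.

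**Figure D5:**
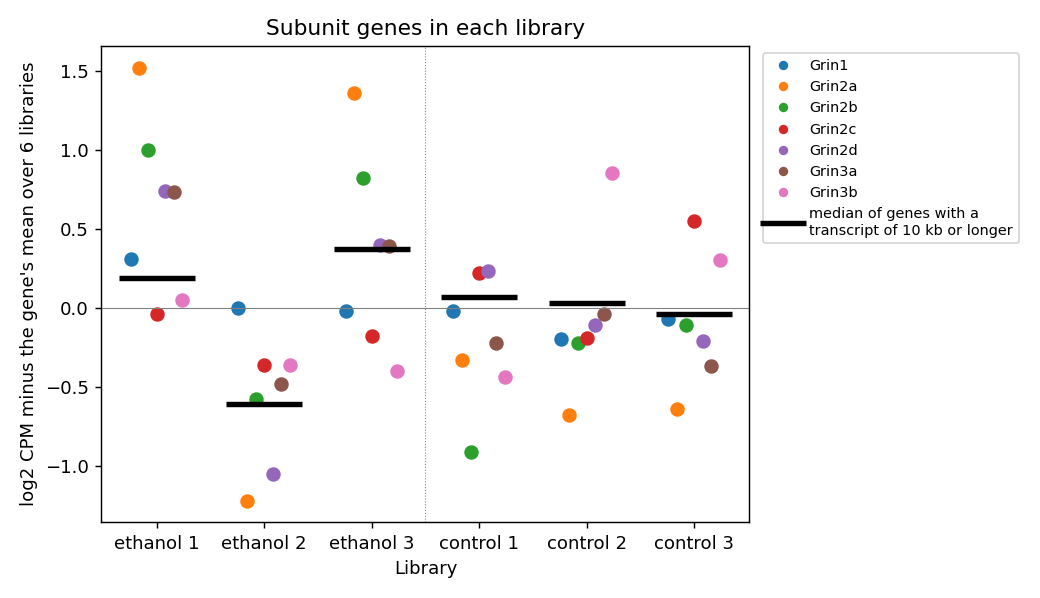
Coloured points give the log2 CPM of each subunit gene less its own mean (y axis) in each library (x axis), and black bars the median of 383 other genes with a transcript of 10 kb or longer. Grin2a reaches 1.52 and 1.36 in ethanol 1 and ethanol 3 and -1.22 in ethanol 2, where the long genes have a median of -0.61.

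In bulk tissue, fewer cells of a type and less RNA per cell cannot be told apart, so the marker lists are given beside these values. The part of any marker list in the results was not tested. The 8 markers of cortical glutamatergic neurons, which also carry GluN2A and GluN2B, summed to 31.9, 16.8 and 38.6 FPKM in ethanol and 41.5 to 126.3 FPKM in control. Between the groups this sum ran opposite to Grin2a and Grin2b. Within the ethanol group ethanol 2 was lowest, as in both genes. Of the 7 cortical markers tested, 2 had a log2 fold change above 0, so the list did not run in 1 direction. In control 1, Slc17a7 alone made up 83.9 of the summed 126.3 FPKM. Slc17a7 stood at 2.53 to 15.8 FPKM in ethanol and 17.1 to 83.9 FPKM in control, and Emx1 was at 0 in some libraries. The 8 markers of medium spiny neurons summed to 444.4, 671.6 and 389.6 FPKM in ethanol and to 364.8 to 435.3 FPKM in control, highest in the library where Grin2a was lowest. The 3 markers of oligodendrocyte precursors summed to 33.9, 22.4 and 30 FPKM in ethanol and 20.3 to 22.4 FPKM in control, and the 5 septal and basal forebrain markers to 20.9, 16.6 and 29.4 FPKM in ethanol and 17.3 to 19.2 FPKM in control. Both of these lists had reads for all markers in every library and were highest in ethanol 1 and ethanol 3, like Grin2a, and their part in the result was not tested. The 7 astrocyte markers, with reads in all libraries, summed to 386.6 to 470.8 FPKM in ethanol and 321.3 to 414.7 FPKM in control. These ranges overlapped, and 6 of the 7 markers had a log2 fold change above 0, while that of Grin2c was below 0. Aqp4, of the same list, stood at 8.63 to 16.2 FPKM in ethanol and 14.3 to 22.2 FPKM in control, its ethanol range reaching lower, as for Grin2c. The 8 genes of the interneuron list, Gad1 and Chat among them, had reads in all libraries. Gad1 is not particular to interneurons, so the sum of this list is not one of interneurons alone. These 8 genes summed to 603.1, 1223.1 and 691.8 FPKM in ethanol and 744.6 to 1132.6 FPKM in control. This sum was highest in the library where Grin2d was lowest, but the sum of medium spiny neuron markers was highest there too. Chat, a small part of the sum of the interneuron list, stood at 3.24 to 3.89 FPKM in ethanol and 1.63 to 2.88 FPKM in control. The 4 choroid plexus markers summed to 1.19 to 2.18 FPKM in ethanol and 2.19 to 275.5 FPKM in control, where Ttr had 273.4 FPKM in control 3 and Kcnj13 and Folr1 were at 0 in some libraries.

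In the other 8 marker lists edgeR called no gene either. The 5 meningeal fibroblast markers summed to 6.11 to 6.69 FPKM in ethanol and 7.46 to 13.7 FPKM in control, so the groups did not overlap, and 0 of 5 had a log2 fold change above 0. The 4 thalamic markers summed to 25.9 to 71.7 FPKM in ethanol and 47.3 to 120.5 FPKM in control, with 0 of 4 above 0. The 6 oligodendrocyte markers summed to 5609.1 to 7076.6 FPKM in ethanol and 7042.3 to 8152.7 FPKM in control, with 1 of 6 above 0. Markers of medium spiny neurons with D2 receptors summed to 427.0, 960.2 and 401.1 FPKM in ethanol and 443.2 to 537.2 FPKM in control, and those of neurons with D1 receptors to 83.3, 164.8 and 94.0 FPKM in ethanol and 85.7 to 153.8 FPKM in control. In both lists ethanol 2 was the highest library, the one where Grin2a, Grin2d and Grin3a were lowest. Microglial markers summed to 102.8 to 168.6 FPKM in ethanol and 103.6 to 139.4 FPKM in control, endothelial and mural markers to 39.0 to 49.6 FPKM in ethanol and 49.4 to 64.8 FPKM in control, and blood markers to 153.9 to 566.8 FPKM in ethanol and 180.3 to 313.5 FPKM in control, with Hbb-bs at 0 in some libraries. The part of these lists in the results was not tested.

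The genes whose CPM followed a subunit gene most closely over the 6 libraries were found by the root mean square difference of log2 CPM, each less its mean, among 10447 or 10448 genes. For Grin2a they were Tnr, which encodes the matrix protein tenascin-R (0.195), Abhd2 (0.223) and Irs2, which encodes an insulin receptor substrate (0.229), against a median of 1.06. Tnr had 51.5, 8.13 and 42.4 CPM in ethanol and 16.5, 15 and 10.4 CPM in control. For Grin2b they were Dgki, a diacylglycerol kinase gene (0.287), Kcnma1, the gene of the BK potassium channel (0.291), and Sesn3 (0.299), against a median of 0.71. For Grin1 they were Chpf2 (0.0179), Rundc1 (0.018) and Zdhhc3 (0.0255), against a median of 0.25. Grin1 itself spanned only 1.42-fold in CPM.

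The genes that supply, anchor and modify NMDA receptors were read from the same fit, and no list had a gene past the threshold in edgeR, DESeq2 or limma-voom. The counts of each list stand beside 10.7% of all genes with an unadjusted p under 0.05 in edgeR, 52.7% with a log2 fold change above 0 and a median of 0.02. With libraries scaled by total counts only, the median of all genes was -0.06, beside which list medians of that setting stand. Of 13 tested genes that supply or clear the co-agonists (Slc6a5 had too few reads), 0 were called, 0 had an unadjusted p under 0.05 in edgeR, 8 had a log2 fold change above 0 and the median was 0.07 (0.04 to 0.15 without each library in turn, and -0.01 with libraries scaled by total counts only). Slc1a4, a transporter of serine and alanine, had 120.7, 87.8 and 101.8 CPM in ethanol and 77.3, 92.8 and 74.0 CPM in control, a log2 fold change of 0.35 (SE 0.18), and Phgdh, the first enzyme of serine synthesis, had a log2 fold change of 0.35 (SE 0.19). Slc1a5, a neutral amino acid transporter, had -0.47 (SE 0.25), with ethanol libraries at 3.27 to 4.28 CPM and control libraries at 4.37 to 5.74 CPM.

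Of 19 scaffold, auxiliary and trafficking genes, 0 were called, 1 had an unadjusted p under 0.05 and the median was 0.14, with 15 above 0. That median was 0.03 without ethanol 1, 0.07 without control 3 and 0.05 with total counts only. That gene was Neto1, an auxiliary subunit of kainate receptors that also binds NMDA receptors. It had 24.4, 19.9 and 28.6 CPM in ethanol and 19.1, 17.3 and 9.73 CPM in control, a log2 fold change of 0.66 (SE 0.26, edgeR adjusted p = 0.448), and its ethanol libraries all lay above its control libraries, as in 9.35% of all genes. Lin7a, a scaffold gene, had a log2 fold change of -0.49 (SE 0.26), and Ephb2, a receptor that binds GluN1, 0.44 (SE 0.23).

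Of 23 genes for kinases, phosphatases and calmodulin, 0 were called, 2 had an unadjusted p under 0.05 and the median was 0.16, with 17 above 0. Leaving out ethanol 2, or scaling by total counts only, gave 0.07. Prkcb, a protein kinase C gene, had 426.2, 313.3 and 387.5 CPM in ethanol and 268.3, 293.2 and 243.3 CPM in control, a log2 fold change of 0.49 (SE 0.17, edgeR adjusted p = 0.439). Ptk2b, a tyrosine kinase upstream of Src, had a log2 fold change of 0.40 (SE 0.17), and Prkacb, a catalytic subunit of protein kinase A, 0.37 (SE 0.17). The ethanol libraries of Prkcb and Ptk2b lay above their control libraries, as did those of 9.35% of all genes, and those of Prkacb did not.

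Of 18 genes of signalling after calcium entry, 0 were called, 1 had an unadjusted p under 0.05 and the median was 0.19, with 14 above 0. Leaving out ethanol 2 gave 0.29, and scaling by total counts only gave 0.11. Rasgrf1, an exchange factor for Ras that responds to calcium and binds GluN2B, had 595.5, 332.1 and 459.7 CPM in ethanol and 328.3, 306.8 and 282.6 CPM in control, a log2 fold change of 0.60 (SE 0.21, edgeR adjusted p = 0.439). Rasgrf2, a related exchange factor, had a log2 fold change of 0.46 (SE 0.21).

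Beside the other ionotropic glutamate receptors, edgeR called 0 of 4 AMPA receptor genes and 0 of 7 kainate and delta receptor genes. At an unadjusted p under 0.05 it had 0 of 4 and 3 of 7, against 2 of 7 NMDA receptor genes and 10.7% of all genes. A log2 fold change above 0 was found in 1 of 4 and 6 of 7, against 5 of 7 NMDA receptor genes and 52.7% of all genes. The median log2 fold changes of the AMPA and of the kainate and delta receptor genes were -0.25 (0.02 with GC and length trends removed) and 0.27, against 0.23 for the 7 NMDA receptor genes, and none of these differences was tested. Without each library in turn the median ran from -0.62 (without ethanol 3) to -0.09 (without ethanol 2) for AMPA receptor genes and from 0.18 (without ethanol 1) to 0.48 (without ethanol 2) for kainate and delta receptor genes. Gria1, an AMPA receptor gene, stood at 60.7, 45.5 and 63.8 FPKM in ethanol and 49.1, 50.9 and 42.8 FPKM in control. Gria4 and Gria3 had log2 fold changes of -0.38 and -0.34. Grid1 and Grik3 had log2 fold changes of 0.58 and 0.63.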

How the data were processed

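Messenger RNA of 3 ethanol and 3 control samples was sequenced. The authors deposited 1 table holding FPKM and a read count for every RefSeq transcript in each sample, per the file headers. Transcript lengths are those of the deposited table. The submitters' processing notes name mm10 and bcl2fastq without versions or roles, while the aligner and counter are not given in those notes or other sources used here. Each deposited count equalled FPKM times length times a fitted library size, rounded up, within 0.05 reads, for 99.9% to 100.0% of the 21160 to 26038 transcripts checked per library. The size was fitted from the deposited values (43213606 to 82773017) and is larger than the summed estimated reads. Each deposited value was therefore treated as an estimated count and rounded no further.

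Counts were summed by gene identifier (10 identifiers with 2 symbols were merged), filtered with filterByExpr (minimum count 10, 15774 genes) and tested with edgeR 4.0.16 (TMM, quasi-likelihood, group as the only term, two-sided, Benjamini-Hochberg threshold 0.05) in R 4.3.3. Transcripts were tested likewise (22527). A standard error is the log2 fold change over the square root of F. The floor of 3 reads equals 0.0478 to 0.082 CPM (counting error only). DESeq2 1.42.0, limma 3.58.1 and other settings were alternatives. Ratios and shares were tested with scipy 1.17.1.

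The members, gene lists and marker lists were chosen with earlier results of these data known. Named genes are the 7 members, from each list the 3 genes of lowest unadjusted p, the 3 genes most like Grin1, Grin2a and Grin2b (mean log2 CPM of at least 3, gene models left out) and 5 marker checks. Of the genes this rule names, 2 are not reported here. GC and length trends, transcript shares and the long-gene medians were added after the data had been seen. Deviations of same-numbered samples of the 2 groups had correlations of 0.146, -0.031 and -0.017, which cannot decide whether samples were paired. Of the tests, only the edgeR gene test was run on simulated counts with known changes.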

Additional observations from a re-analysis of the deposited data

How the results depend on the processing

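The call of 0 genes in edgeR was 0 with limma-voom (with or without sample weights), DESeq2 size factors, total counts only, no low-count filter, a minimum count of 50, and GC and length trends removed, and 144 with DESeq2; the cause was not tested. Left out in turn, the libraries gave 0 to 211 genes, with 211 without ethanol 2 and 1 without control 1, and 0 to 2 subunit genes, the 2 being Grin2a and Grin2b without ethanol 2. The transcript test called 0 transcripts in each of these fits. Grin3b could not be given with the minimum count of 50. The log2 fold change of each subunit gene kept its sign in all fits but 1, with ranges over left-out libraries of 0.09 to 0.26 (Grin1), 1.15 to 2.01 (Grin2a), 0.66 to 1.28 (Grin2b), -0.58 to -0.23 (Grin2c), -0.13 to 0.59 (Grin2d, below 0 without ethanol 1), 0.22 to 0.76 (Grin3a) and -0.85 to -0.19 (Grin3b). Among transcripts the sign turned for Grin1 variant 1 (-0.06 to 0.2), Grin1 variant 2 (-0.12 to 0.42), Grin2d (-0.12 to 0.62) and Grin3a variant 1 (-0.11 to 0.79). Ethanol minus control shares ran from -3.7 to 3.36 percentage points for Grin1 variant 2, from -10.2 to 12.1 for Grin3a variant 2 and from -12.1 to 10.2 for Grin3a variant 1. All 5 ratios kept their sign with read counts in place of FPKM, with a pseudocount of 0.1 FPKM and without each library, though not their size: Grin2d over Grin2b ran from -1.01 to -0.39 and Grin2c over Grin2b from -1.64 to -0.96 over left-out libraries. FPKM put the median gene at a log2 ratio of group means of -0.09, against 0.02 in edgeR.

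With the replicate block, edgeR called 0 genes and 0 subunit genes. The labels do not say that same-numbered samples are pairs. Deviations of same-numbered samples had correlations of 0.146, -0.031 and -0.017. Ethanol 1 correlated best with control 1, and ethanol 2 with control 3 (0.188). With 3 samples per group these values cannot decide whether samples were paired.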

Other observations

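Grin1os, named for the strand opposite Grin1, had a log2 fold change of -1.26 (SE 0.57, edgeR adjusted p = 0.47) on 11 to 124 reads per library, while Grin1 had 0.20. Since the strand used in counting is not given, reads from any overlap of the pair cannot be told apart.

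Grin2a and Grin2b are 2 of the 422 tested genes whose model in the table is under 35% of the longest GENCODE M21 transcript. The longest GENCODE transcripts of Grin2a and Grin2b have 44.8% and 45.7% GC, against 49.2% in Grin3a and 59.4% to 65.0% in the other 4 subunit genes.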
